A study of Mus musculus with 4 samples.

Results

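The cells described here are the E18.5 mouse forebrain barcodes that carried transcripts of both Egfr and Olig2 but none of Pdgfra or Sox10. A barcode was a member if it had at least 1000 detected genes, at most 10% of its unique molecular identifiers (UMIs, counts of single captured molecules) from mitochondrial genes, at least 1 UMI of Egfr, at least 1 UMI of Olig2, and 0 UMIs of Pdgfra and of Sox10. Of the 4252 E18.5 barcodes that passed the quality filter, 672 were members, 485 in the library labelled cortex and 187 in the library labelled GE (ganglionic eminence). The whole series held 6296 such barcodes. Members were chosen by their own counts of 4 genes, so the levels of these genes are given only as a description. The working name for them, glial intermediates, was checked against the other genes and did not hold for all of them: members fell into several groups of cells, some with astrocyte lineage genes and some with Dlx genes. They are called Egfr and Olig2 members below.

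Egfr encodes the receptor for epidermal growth factor, and cells of the late embryonic germinal zones that carry it respond to EGF ligands and include progenitors of glia. Olig2 is a basic helix-loop-helix transcription factor of ventral progenitors and of the oligodendrocyte lineage, and it is also found in dividing progenitors and in part of the astrocyte lineage. Pdgfra, a receptor for platelet-derived growth factor, and Sox10, a transcription factor, mark cells that have become oligodendrocyte precursors, so their absence limits the members to cells without detected transcripts of that identity.

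The study compared sorted cells of the embryonic cortex and GE at E15.5 and E18.5, with 1 library in each of the 4 groups. Heterozygous Nestin-GFP mice, which carry green fluorescent protein under Nestin regulatory sequence, were bred with homozygous DCX-mRFP mice, which carry red fluorescent protein under doublecortin regulatory sequence. Embryos positive for both reporters were dissociated, and cells were sorted for green fluorescence at both ages and from both regions. The sort therefore limited all groups to cells with the green reporter, while how many embryos were pooled, and of which sex, was not given in the sources used here. About 10000 cells were loaded per library for droplet capture of transcript 3' ends (10x Genomics, v2 reagents).

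The region labels went against the data and against the names of the deposited files. Emx1, a transcription factor of the dorsal telencephalon, reached 40.0 counts per 1000000 (CPM) in the other barcodes of the library labelled GE E18.5 and 1.11 CPM in those of the library labelled cortex E18.5. Nkx2-1, a transcription factor of the medial eminence, stood at 2.00 CPM in the former and 127 CPM in the latter. The libraries are therefore named by their labels throughout, as the library labelled cortex and the library labelled GE. They held 29427527 and 14528712 UMIs in 3139 and 1153 barcodes, of which 3104 and 1148 were kept, with medians of 8799.5 and 10124 UMIs. The E18.5 libraries shared 4 barcode sequences, 3 of them a member's in at least 1 library. With 1 library per group no difference could be tested, so no p-value is given, cells are not used as replicates, and every 95% interval covers counting error only.

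As deposited, members made up a like share of both libraries. They were 15.6% of the kept barcodes in the library labelled cortex (485 of 3104, exact Clopper-Pearson interval 14.4 to 17.0%) and 16.3% in the library labelled GE (187 of 1148, 14.2 to 18.6%). The intervals overlapped. Members were deeper than the other barcodes, with median UMIs of 10781 against 8398 in the library labelled cortex and 11909 against 9958 in the library labelled GE, and a rule that asks for detected transcripts favours deeper barcodes. After each barcode was thinned at random to 4000 UMIs, the share was 7.38% (208 of 2818 barcodes, 6.44 to 8.41%) in the library labelled cortex and 10.5% (121 of 1148, 8.82 to 12.5%) in the library labelled GE, and these intervals did not overlap. The rule was applied again after thinning, so a barcode that lost its Pdgfra or Sox10 UMIs could become a member. Olig2 barcodes with Pdgfra or Sox10 went from 185 to 119 and from 366 to 241. The part of this in the thinned shares was not tested.

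Among the neighbouring sets, the one with Pdgfra or Sox10 differed most between the libraries. Olig2 barcodes with at least 1 UMI of Pdgfra or Sox10, called the Pdgfra/Sox10 set below, were 5.96% of the library labelled cortex (185 barcodes) and 31.9% of the library labelled GE (366 barcodes). Olig2 barcodes with no UMI of Egfr, Pdgfra or Sox10 were 21% and 10.9% (652 and 125 barcodes). Egfr barcodes with no UMI of the other rule genes were 7.51% and 6.01% (233 and 69 barcodes). At 4000 UMIs the shares were 4.22% and 21% for the Pdgfra/Sox10 set, 17.8% and 13.7% for Olig2 without Egfr, and 5.89% and 7.49% for Egfr without Olig2, so the direction of the last turned with depth.

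**Figure D1:**
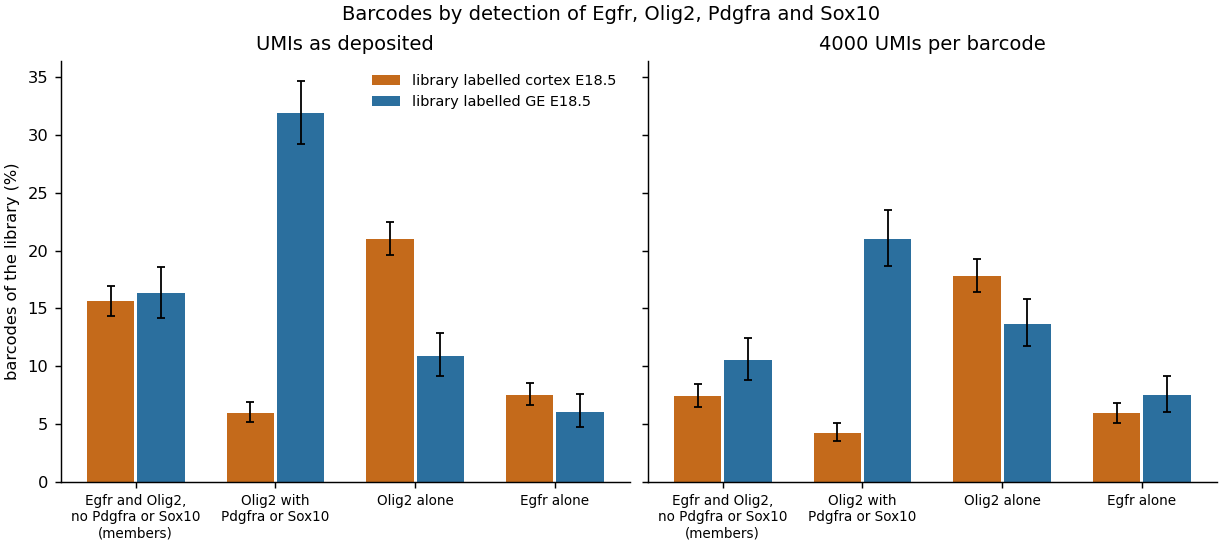
Bars give the percent of kept barcodes (y axis, from 0) that met the member rule and the rules of the 3 neighbouring sets in each E18.5 library, with UMIs as deposited on the left and 4000 UMIs per barcode on the right, and error bars are exact 95% intervals. Members stood at 15.6% and 16.3% as deposited and at 7.38% and 10.5% when thinned, while the Pdgfra/Sox10 set stood at 5.96% and 31.9% as deposited.

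Free RNA in droplets can give single UMIs to cells that do not express a gene, and neurons served as a comparison. In the GABAergic neuron-like clusters Egfr was detected in 2.49% of 442 barcodes of the library labelled cortex and in 4.29% of 140 barcodes of the library labelled GE. Olig2 was detected in 9.95% and 6.43% of the same barcodes. In the library labelled cortex the shares differed between the clusters pooled here, clusters 4 and 5, with 221 barcodes each. Egfr was detected in 0% of cluster 4 and 4.98% of cluster 5, and Olig2 in 4.52% and 15.4%. The 140 barcodes of the library labelled GE were all in cluster 4. All kept barcodes stood at 26.3% and 43.7% for Egfr and at 42.6% and 59.1% for Olig2. The neuron-like barcodes were shallower, with median UMIs of 4915 and 5392, but at 4000 UMIs the shares kept the same order: 2.02% and 3.57% of neuron-like barcodes against 14.3% and 27.2% of all barcodes for Egfr. Members made up 1.13% and 0.714% of the neuron-like barcodes.

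Egfr was detected more often in barcodes with Olig2 than in barcodes without it. Among barcodes without Pdgfra and Sox10 UMIs, all thinned to 4000 UMIs, Egfr was found in 29.3% of those with Olig2 and in 8.46% of those without it in the library labelled cortex. The corresponding shares in the library labelled GE were 43.5% and 14.5%. Without thinning they were 42.7% and 13.3% in the library labelled cortex and 59.9% and 15.7% in the library labelled GE. The thinned intervals, which cover counting error only, were 26 to 32.8% and 7.27 to 9.78% in the library labelled cortex. In the library labelled GE they were 37.6 to 49.6% and 11.8 to 17.6%. These shares use only genes of the rule, so they are a description and give no support to the members as a group.

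The genes of the rule lie on 4 chromosomes of the mm10 build, in the GENCODE M21 annotation. Egfr (ENSMUSG00000020122) is on chromosome 11 from 16752203 to 16918158 on the plus strand. Olig2 (ENSMUSG00000039830) is on chromosome 16 from 91225457 to 91228677 on the plus strand, and Olig1 (ENSMUSG00000046160), a related factor not used by the rule, follows it from 91269772 to 91271933. Pdgfra (ENSMUSG00000029231) is on chromosome 5 from 75152292 to 75198215 on the plus strand, and Sox10 (ENSMUSG00000033006) is on chromosome 15 from 79154908 to 79165240 on the minus strand. The counts are summed over each whole gene, so exons and UTRs are not told apart.

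Many members met the rule by single molecules. Summed over members, Egfr stood at 224 CPM in the library labelled cortex and 243 CPM in the library labelled GE, and Olig2 at 471 and 609 CPM. The median member had 2 Egfr UMIs in both libraries, and 3 and 5 Olig2 UMIs. Exactly 1 Egfr UMI was found in 216 and 64 members, and exactly 1 Olig2 UMI in 143 and 39. The highest counts in a single member were 9 and 11 Egfr UMIs and 30 and 30 Olig2 UMIs.

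Olig1 was lower in members near the threshold than in those above it. The 90 and 22 members with exactly 1 UMI of each gene had 119 and 246 CPM of Olig1, whereas the 216 and 106 members with at least 2 UMIs of each had 968 and 1337 CPM. Just outside the rule, Egfr and Olig2 barcodes with exactly 1 UMI of Pdgfra or Sox10 (34 and 60 barcodes) had 890 and 1927 CPM of Olig1 but 2.56 and 5.65 CPM of Lhfpl3, a gene of oligodendrocyte precursors. Those with 2 or more such UMIs (58 and 179 barcodes) had 2734 and 2614 CPM of Olig1 and 61.5 and 60.6 CPM of Lhfpl3. These values describe the edge of the rule and were not tested.

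Compared with all other barcodes of their library, members had higher levels of 10 genes of varied roles, among them Mfge8, Slc6a11, Fgfr3 and Lfng, and lower levels of 80 genes that included markers of neurons such as Stmn2, Dcx and Lhx6. A gene was measured if it reached 20 CPM in members or in the comparison set in both libraries, and was counted as higher or lower if its CPM differed by at least 2-fold in the same direction in both. Of 7250 genes measured, 10 were higher (0.138%) and 80 were lower (1.1%). All 10 are given here by what they encode, an order that no list or test supports as a theme. Mfge8, Slc6a11, Fgfr3 and Lfng were not past 2-fold in both libraries against barcodes with only Egfr or only Olig2. Ramp1, another of the 10, was not past 2-fold against barcodes with only Egfr, with log2 ratios of 0.63 and 0.0057. Whether the rest of the 10 passed 2-fold against these sets is not given here.

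Of them 3 encode receptors or receptor subunits and 1 a transporter. Slc6a11, a GABA transporter of astrocytes, stood at 140 CPM in members and 52.9 CPM in other barcodes of the library labelled cortex, and at 96.9 and 37.7 CPM in the library labelled GE. These levels are 2.64-fold (2.39 to 2.92) and 2.57-fold (2.15 to 3.06) higher. Fgfr3, a fibroblast growth factor receptor of glial progenitors, stood at 64.9 against 26.5 CPM in the library labelled cortex and 94.1 against 47.0 CPM in the library labelled GE. The latter ratio, 2.00-fold (1.68 to 2.37), lay at the 2-fold limit. Grm5, a metabotropic glutamate receptor, stood at 62.3 against 19.3 CPM and at 120 against 45.1 CPM, which is 3.23-fold and 2.67-fold higher. Ramp1, a subunit of calcitonin family receptors, was 2.44-fold and 2.11-fold higher.

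The other genes encode secreted, lysosomal, Golgi or less known proteins. Mfge8, a secreted glycoprotein of radial glia and astrocytes, stood at 840 against 378 CPM in the library labelled cortex and 1438 against 643 CPM in the library labelled GE. These ratios were 2.22-fold (2.14 to 2.31) and 2.24-fold (2.14 to 2.34). Lfng, a glycosyltransferase that modifies Notch, stood at 186 against 84.7 CPM and 248 against 117 CPM, 2.20-fold and 2.13-fold higher. Nptx2, a secreted pentraxin, was 2.69-fold and 2.22-fold higher, and Ctsc, a lysosomal protease, was 3.29-fold and 2.16-fold higher. The remaining 2 were Fam181b, 2.89-fold and 2.15-fold higher, and Tmem176a, 2.04-fold and 2.13-fold higher. Of the UMIs of these 10 genes, the member with most held no more than 9.16% in either library.

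A few progenitor genes passed 2-fold in the library labelled cortex without passing it in the library labelled GE. Gas1, a membrane protein that binds Hedgehog, stood at 344 against 93.3 CPM (3.68-fold) in the former and 542 against 319 CPM (1.70-fold) in the latter. Olig1 stood at 643 against 255 CPM in the former and at 1188 against 1219 CPM in the latter. Id1, a target of BMP signalling, was 2.59-fold and 1.96-fold higher. The Pdgfra/Sox10 set, in which Olig1 stood at 2382 and 2524 CPM, is part of the other barcodes and made up 5.96% and 31.9% of the libraries. Its part in these differences was not tested here, and the direct comparison with it follows below.

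The 10 genes furthest down in both libraries were Actl6b, Npy, Slc32a1, Mir124a-1hg, Lhx6, Stmn2, Gucy1a3, Csrnp3, Myt1l and Celf3, most of them known from neurons. Stmn2, a microtubule regulator of young neurons, stood at 72.8 CPM in members and 359 CPM in other barcodes of the library labelled cortex, and at 48.9 and 200 CPM in the library labelled GE, 4.93-fold (4.42 to 5.52) and 4.09-fold (3.36 to 5.04) lower. Dcx, a microtubule protein of migrating neurons, stood at 53.9 against 246 CPM and 75.5 against 227 CPM. Lhx6, a transcription factor of interneurons, stood at 7.89 against 75.5 CPM and 14.7 against 61.2 CPM, 9.56-fold and 4.16-fold lower. Slc32a1, the vesicular GABA transporter, was 5.20-fold and 4.53-fold lower, and Npy, a neuropeptide, was 5.26-fold and 7.49-fold lower. Few molecules stand behind some of these values in the library labelled GE, where members held 12 UMIs of Slc32a1 and 13 of Npy.

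**Figure D2:**
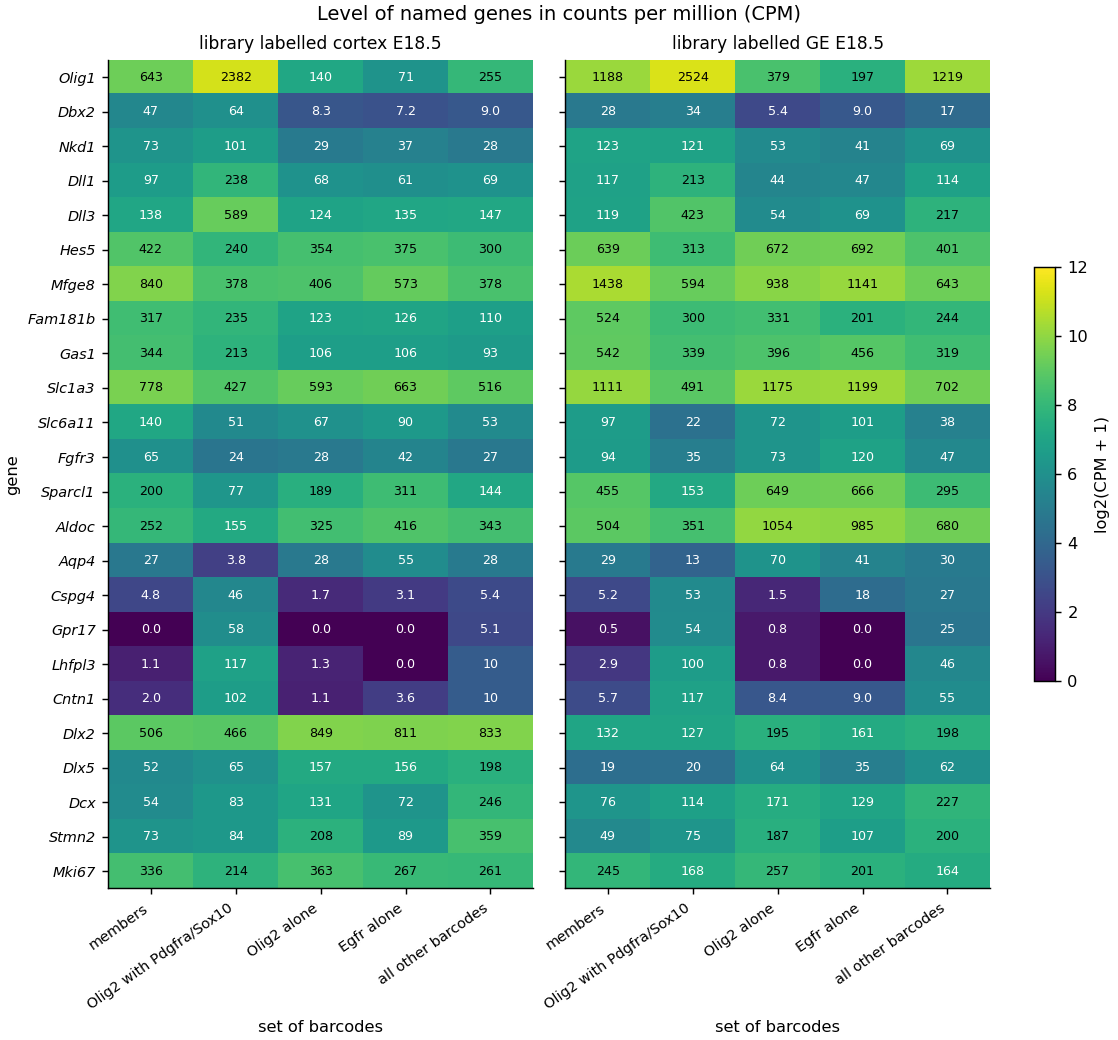
Each cell gives the CPM of a gene (rows) in a set of barcodes (columns) of the library labelled cortex E18.5 (left) or the library labelled GE E18.5 (right), coloured by log2(CPM + 1). Mfge8, Fam181b and Slc6a11 stand higher in members than in all other barcodes of both libraries, Stmn2 and Dcx lower, and Gpr17 and Lhfpl3 are near 0 in members.

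Gene lists were described by the number of measured members past 2-fold in both libraries and by the median log2 ratio in the library labelled cortex and the library labelled GE. Over all genes measured the medians were 0.05 and 0.02. Of 11 measured GABAergic neuron genes 6 were lower, with medians of -1.94 and -1.35. Of 14 neuron differentiation genes 5 were lower (Dcx, Tubb3, Stmn2, Ina and Myt1l), with medians of -0.87 and -0.85. Ventral patterning genes followed, with 4 of 10 lower (Dlx5, Dlx6os1, Lhx6 and Sp9) and medians of -1.41 and -0.83. Of 5 measured excitatory neuron genes 4 were lower (Bcl11b, Mef2c, Tubb3 and Stmn2), with medians of -1.35 and -1.32. Some genes are in more than 1 of these lists.

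Lists of glial identity had few genes past 2-fold in summed counts. Of 24 astrocyte lineage genes 2 were higher (Slc6a11 and Fgfr3) and 2 lower, and the medians were 0.03 and 0.01. The lower ones were Clu, a secreted chaperone, at 62.3 against 190 CPM and 82.2 against 166 CPM, and Sparc, a matrix glycoprotein, at 82.7 against 180 CPM and 90.2 against 258 CPM. Of 17 radial glia genes 1 was higher (Mfge8), with medians of 0.28 and 0.14. Of 9 oligodendrocyte lineage genes none was higher and Myt1, a zinc finger transcription factor, was lower. Barcode by barcode, the median share of UMIs from each of these lists was higher in members than in other barcodes. For the astrocyte lineage list it was 32.7 against 11.4 per 10000 UMIs in the library labelled cortex and 50.4 against 21.3 in the library labelled GE, with quartiles of 13.3 and 92.9, and of 23.1 and 128, in members. For the radial glia list it was 113 against 43.6 and 213 against 145, and for the oligodendrocyte lineage list, counted without the rule genes, 19.0 against 5.03 and 36.1 against 25.6. Medians over barcodes weigh each barcode equally, whereas summed counts follow the barcodes with most of a transcript.

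Signalling lists were read the same way. Of 14 Notch pathway genes only Lfng was past 2-fold in both libraries. Hes5, a Notch target, stood at 422 against 300 CPM and 639 against 401 CPM, 1.41-fold and 1.59-fold higher. None of 15 measured genes of the FGF, EGF and ERK response, which are induced downstream of receptors such as Egfr, passed 2-fold in both. In the library labelled cortex 7 of them were at least 2-fold higher, against 0.954% of all genes measured there, none was lower (2.01% of all genes), and the list's median was 0.41. In the library labelled GE none was higher, against 0.594% of all genes measured there, 1 was lower (2.98% of all genes), and the median was 0.08. The lower gene of the list was Phlda1, at 34.7 against 83.4 CPM. Against the Pdgfra/Sox10 set, 17 genes of the list were measured, with medians of -0.40 and -0.11, where all genes had -0.0068 and -0.0028. None was at least 2-fold higher in either library, and 2 were lower in both (1.71% of all genes). Against Olig2 barcodes without Egfr the medians were 0.58 and 0.25, and against Egfr barcodes without Olig2 0.60 and 0.48.

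The ERK response genes show how these values depended on the library. Etv4, a transcription factor induced by ERK signalling, stood at 39.9 against 12 CPM in the library labelled cortex (3.32-fold) and at 66.0 against 42.4 CPM in the library labelled GE (1.56-fold). Dusp6, a phosphatase that limits ERK, stood at 33.6 against 11.4 CPM and at 34.7 against 35.3 CPM. Spry1, a receptor tyrosine kinase inhibitor, stood at 38.2 against 14.3 CPM and at 48.9 against 46.8 CPM. For these 3 genes the members of the libraries differed less than the other barcodes did. Whether the ratios differ between the libraries was not tested.

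Members carried dividing-cell transcripts more often than other barcodes. A UMI of Mki67 or Top2a, both found in dividing cells, was present in 71.8% of members and 52.4% of other barcodes in the library labelled cortex, and in 66.8% and 43.1% in the library labelled GE. At 4000 UMIs the shares were 63.7% (59.1 to 68.0%) against 47.7% (45.7 to 49.8%) in the former and 49.2% (41.8 to 56.6%) against 31.2% (28.3 to 34.3%) in the latter. In the Pdgfra/Sox10 set the thinned shares were 40.9% and 35.8%. The nearest sets stood closer to members: Olig2 barcodes without Egfr had 58.3% (54.3 to 62.3%) and 48.8% (39.8 to 57.9%), and Egfr barcodes without Olig2 had 61.0% (54.2 to 67.5%) and 36.2% (25.0 to 48.7%), each with an interval that overlapped that of members. None of 24 S phase genes and none of 22 G2 and M phase genes passed 2-fold in both libraries. Their medians were 0.08 and 0.61 for S phase and 0.29 and 0.54 for G2 and M phase.

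The comparison with the Pdgfra/Sox10 set asked how members differ from Olig2 barcodes that carry an oligodendrocyte precursor receptor or factor. Most measured oligodendrocyte lineage genes were lower in members, and several astrocyte lineage genes were higher. Of 7407 genes measured, 37 were higher in members (0.5%) and 127 lower (1.71%). Of 18 measured oligodendrocyte lineage genes 14 were lower, with median log2 ratios of -2.10 and -1.97, and of 23 astrocyte lineage genes 7 were higher and 1 lower, with medians of 0.89 and 0.94. Over all genes the medians were -0.0068 and -0.0028. Oligodendrocyte genes that accompany Pdgfra and Sox10 were indirectly selected against by the rule, so these counts are a description.

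Genes of committed precursors were close to absent from members. Gpr17, a receptor of committed oligodendrocyte precursors, had 0 UMIs in members of the library labelled cortex against 57.7 CPM in the Pdgfra/Sox10 set, which is at least 87.8-fold lower at a floor of 3 UMIs over the members, and 1 UMI (0.475 CPM) in members of the library labelled GE against 54.1 CPM. Lhfpl3 stood at 1.10 against 117 CPM in the library labelled cortex and 2.85 against 99.7 CPM in the library labelled GE, 107-fold (45.1 to 334) and 35-fold (15.9 to 95.9) lower. Cntn1, a contactin of the axon and glial surface, stood at 1.97 against 102 CPM and 5.70 against 117 CPM. Cspg4, the NG2 proteoglycan, stood at 4.82 against 46.2 CPM and 5.23 against 53.4 CPM, 9.57-fold and 10.2-fold lower.

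Genes that members shared with that set differed less. Olig1 stood at 643 against 2382 CPM and 1188 against 2524 CPM, 3.70-fold (3.53 to 3.89) and 2.12-fold (2.03 to 2.22) lower. Dll3, a Notch ligand of differentiating progenitors, stood at 138 against 589 CPM and 119 against 423 CPM, 4.26-fold and 3.55-fold lower. Dll1, another Notch ligand, was 2.45-fold lower in the library labelled cortex and 1.82-fold lower in the library labelled GE, and so was not counted. Spry4, an inhibitor induced by ERK signalling, was 2.78-fold and 2.58-fold lower.

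Of the 37 higher genes, 7 were in the astrocyte lineage list and 3 in the radial glia list, and the examples here come mainly from these lists. Pla2g7, a phospholipase of astrocytes, stood at 46 CPM in members and 10.3 CPM in the Pdgfra/Sox10 set of the library labelled cortex and at 131 and 30.9 CPM in the library labelled GE, 4.49-fold (2.70 to 7.99) and 4.24-fold (3.44 to 5.26) higher. Sparcl1, a matrix protein of astrocytes, stood at 200 against 77.0 CPM and 455 against 153 CPM. Aqp4, the astrocyte water channel, stood at 26.7 against 3.85 CPM and 28.5 against 13.1 CPM. Slc6a11 was 2.76-fold and 4.50-fold higher, and Fgfr3 2.66-fold and 2.72-fold. Tnc, a matrix protein of radial glia, was 2.58-fold and 2.23-fold higher. Id1 was 2.35-fold and 3.05-fold higher, and Mfge8 and Lfng were also higher, by 2.22-fold and 2.42-fold and by 2.27-fold and 2.66-fold.

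**Figure D3:**
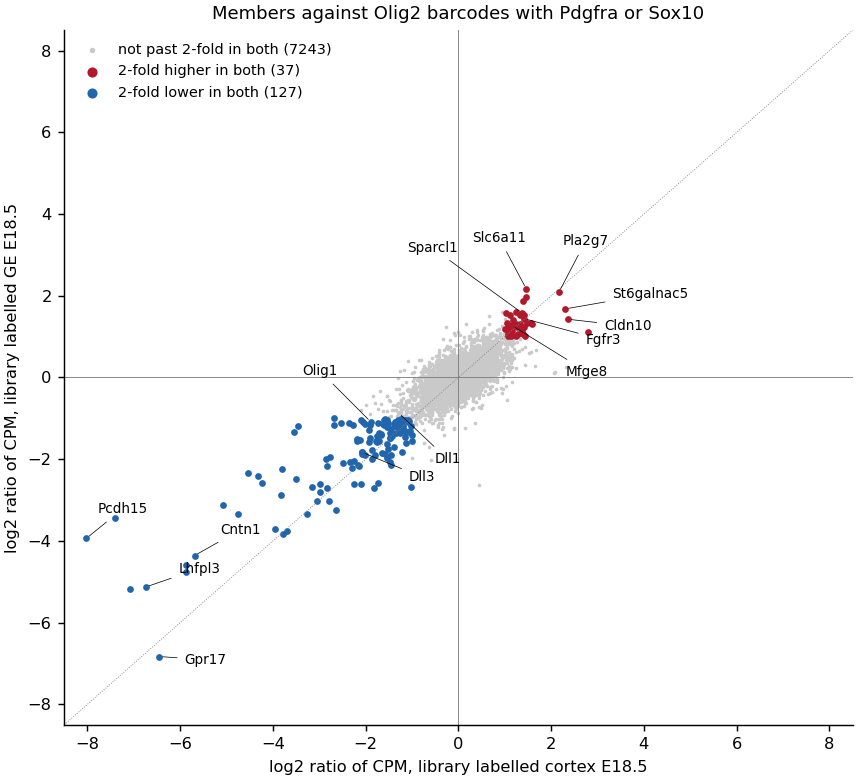
Log2 ratio of CPM in members to that in Olig2 barcodes with Pdgfra or Sox10, for each of 7407 measured genes, in the library labelled cortex E18.5 (x axis) and the library labelled GE E18.5 (y axis). Among the 127 genes lower in both, Gpr17 lies below -6 on both axes, on the x axis as a bound at a floor of 3 UMIs. The lowest ratio on the x axis is -8.02. The 37 higher genes, among them Pla2g7 and Slc6a11, lie between 1 and 3.

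Members were also set against barcodes with only 1 of the genes of the rule. Against Olig2 barcodes without Egfr, 9 of 7126 genes were higher (0.126%) and 16 lower (0.225%). Olig1 stood at 643 against 140 CPM in the library labelled cortex and 1188 against 379 CPM in the library labelled GE, 4.61-fold (4.25 to 5.0) and 3.13-fold (2.84 to 3.46) higher. Olig2 itself stood higher in members than in this set, at 471 against 232 CPM and 609 against 267 CPM. Members with exactly 1 Olig2 UMI had 178 and 324 CPM of Olig1, against 140 and 379 CPM in the whole set without Egfr. The part of the Olig2 level in the Olig1 ratios was not tested. Dbx2, a homeobox transcription factor of progenitors, stood at 46.7 against 8.26 CPM and 27.6 against 5.35 CPM, 5.66-fold and 5.15-fold higher. Nkd1, an inhibitor of Wnt signalling, stood at 73.0 against 29.3 CPM and 123 against 52.8 CPM. On the lower side, 4 of 9 GABAergic neuron genes were lower with medians of -1.05 and -0.87, where all genes had 0.03 and 0.02. Dlx5, for example, stood at 51.5 against 157 CPM and 19.0 against 64.2 CPM.

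Against Egfr barcodes without Olig2, 14 of 7171 genes were higher (0.195%) and 14 lower (0.195%). Olig1 was 9.01-fold (7.60 to 10.8) higher in the library labelled cortex, where the Egfr barcodes without Olig2 had 71.4 CPM, and 6.04-fold (5.07 to 7.26) higher in the library labelled GE, where they had 197 CPM. Dbx2 was 6.5-fold and 3.06-fold higher, and Spry1 6.19-fold and 2.72-fold. Rlbp1, a retinoid-binding protein of glia, stood at 141 against 61.1 CPM and 583 against 282 CPM. Genes of vessel-associated cells were among the lower ones: Rgs5, a pericyte gene, stood at 5.70 against 29.3 CPM and 2.85 against 266 CPM, and 1 member held 92.3% of its UMIs in the library labelled cortex. The mural-like cluster held 2 and 3 barcodes with Egfr in the 2 libraries, of which 1 and 0 were members. The part of these few barcodes in the Rgs5 levels was not tested. Olig1 and Dbx2 were thus higher in members than in barcodes with either gene of the rule alone. The level of Olig2, set by the rule, also differed between these sets, and its part in this was not tested. Dbx2 stood at 64.1 and 34.2 CPM in the Pdgfra/Sox10 set, above its level in members. Many of the calls against these 2 sets were lost at lower depth: at 4000 UMIs, 3 of the 9 higher and 9 of the 16 lower genes against Olig2 alone were kept, and 5 of the 14 higher and 3 of the 14 lower genes against Egfr alone.

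The astrocyte lineage list was not higher in members than in these 2 sets. Against Egfr barcodes without Olig2 its median log2 ratios were -0.37 and -0.44, where all genes had 0.02 and 0.02, and its summed level was 6687 against 8662 CPM in the library labelled cortex and 8161 against 11058 CPM in the library labelled GE. Against Olig2 barcodes without Egfr the medians were 0.09 and -0.52, with 6687 against 6533 CPM and 8161 against 12209 CPM. Of 24 measured genes, none was higher in both libraries in either comparison and 1 was lower in each (Sparc and Clu).

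When all E18.5 barcodes were clustered without the 4 rule genes, members were spread over many of the 17 clusters. The astrocyte lineage-like cluster held 107 members of the library labelled cortex (22.1% of them) and 68 of the library labelled GE (36.4%), and members made up 43.7% and 42.8% of that cluster's barcodes. At the finer Leiden resolution of 1.5 the astrocyte lineage-like shares of members were 10.9% and 18.7%. A cluster named from markers of late forebrain intermediate progenitors, led by Cdkn1c, Gna14, Nkd1 and Olig1, held 43 (8.87%) and 32 (17.1%), and members made up 50% and 32.3% of it. An unnamed cluster led by dividing-cell genes and Gas1 (cluster 9) held 76 (15.7%) and 26 (13.9%). The oligodendrocyte lineage-like cluster held 1 and 8 members, and the GABAergic neuron-like clusters 5 and 1. At the coarser resolution of 0.6 no late intermediate progenitor-like cluster was named, and the oligodendrocyte lineage-like share of members was 9.28% and 23.5%.

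The remaining large groups differed in size between the libraries, among members and among all barcodes. In the library labelled cortex 100 members (20.6%) were in an unnamed cluster led by Ung and Nbl1 (cluster 2), 45 (9.28%) in one led by histone genes (cluster 10) and 59 (12.2%) in one led by mitotic genes such as Ube2c (cluster 11). The library labelled GE had 16, 1 and 4 members there. The radial glia-like cluster held 2 members of the library labelled cortex and 27 (14.4%) of the library labelled GE. That cluster held 22 and 233 barcodes of the libraries in all.

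The levels of a few genes show how unlike these members were. The genes below took part in the clustering, so the differences between clusters are a description. In the astrocyte lineage-like cluster members had 786 and 913 CPM of Aldoc, a glycolytic enzyme of astrocytes, 811 and 1067 CPM of Sparcl1, and 53.2 and 1.57 CPM of Dlx2, a homeobox factor of ventral progenitors. Members of cluster 2 in the library labelled cortex had 693 CPM of Dlx2 and 71.3 CPM of Aldoc. In clusters 10 and 11 of that library they had 1007 and 769 CPM of Dlx2, and the 15 members in the GE intermediate progenitor-like cluster (cluster 8) had 1060 CPM. Both patterns occur among barcodes that meet the same rule.

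Members of the late intermediate progenitor-like cluster had the highest Olig1 of the clusters with at least 15 members in each library, at 2450 and 2837 CPM, against 1101 and 861 CPM in the astrocyte lineage-like cluster. They had 272 and 376 CPM of Dll1 and 412 and 369 CPM of Dll3, against 12.7 and 15.7 CPM of Dll1 in the astrocyte lineage-like cluster. Aldoc stood at 41.9 and 79.2 CPM. A UMI of Mki67 or Top2a was found in 32.6% and 56.3% of them.

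**Figure D4:**
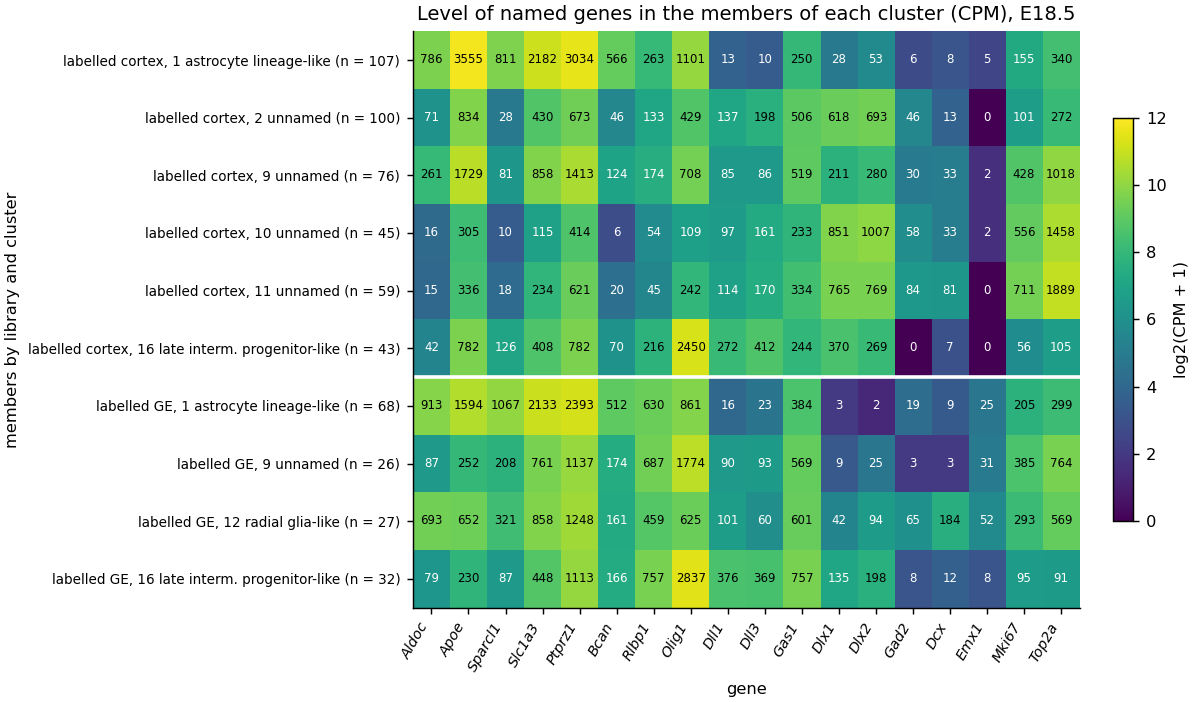
Each cell gives the CPM of a gene (columns) in the members of a cluster (rows, with the number of members), coloured by log2(CPM + 1), for clusters with at least 20 members in the library, the library labelled cortex E18.5 above the white line and the library labelled GE E18.5 below it. Aldoc and Sparcl1 are highest in the astrocyte lineage-like cluster, Olig1, Dll1 and Dll3 in the late intermediate progenitor-like cluster, and Dlx2 in cluster 10 of the library labelled cortex (1007 CPM).

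Within single members Dlx2 was found less often beside Aldoc than without it. With each member thinned to 4000 UMIs, Dlx2 was detected in 24.4% of members with Aldoc and 62.8% of members without it in the library labelled cortex, and in 2.35% and 26.5% in the library labelled GE.

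Between the libraries members differed in regional genes. Of 7610 genes measured, 175 were at least 2-fold higher in members of the library labelled GE (2.3%) and 91 at least 2-fold lower (1.2%). Scale factors from the trimmed mean of M-values gave 132 higher and 117 lower and moved the median of all genes from 0.06 to -0.04. The other barcodes differed in 335 (4.27%) and 135 (1.72%) of 7844 genes in the same directions. Of 10 dorsal patterning genes 7 were higher in members of the library labelled GE, with a median log2 ratio of 3.43, and of 14 ventral patterning genes 9 were lower and 1 higher, with a median of -1.75. The other barcodes had medians of 3.59 and -1.84 for these lists.

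Dorsal genes with the largest ratios included Eomes, a transcription factor of cortical intermediate progenitors, at 4.39 CPM in members of the library labelled cortex and 77.4 CPM in members of the library labelled GE, 17.7-fold (11.1 to 29.7). Emx1 stood at 1.75 and 29.5 CPM, 16.8-fold (8.01 to 40.6). Neurog2, a proneural factor of cortical progenitors, stood at 7.45 and 133 CPM, and 1 member held 70.6% of its UMIs in the library labelled cortex. Hopx, a gene of outer and late radial glia, stood at 4.39 and 41.3 CPM.

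Ventral genes went the other way. Nkx2-1 stood at 67.1 CPM in members of the library labelled cortex, and its 2 UMIs in the library labelled GE (0.95 CPM) came from 1 member. Gsx1, a homeobox factor of ventral progenitors, stood at 112 and 5.23 CPM, 21.5-fold (11.9 to 43.4) lower in members of the library labelled GE, and 1 member held 45.5% of the UMIs there. Six3, another homeobox factor, stood at 98.2 and 1.90 CPM. Dlx2 stood at 506 and 132 CPM and Dlx1 at 452 and 97.4 CPM, 3.83-fold and 4.64-fold lower in members of the library labelled GE.

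Some glial genes also differed between members of the libraries. Rlbp1 stood at 141 and 583 CPM, 4.15-fold (3.77 to 4.57) higher in the library labelled GE, and Tnc at 71.3 and 286 CPM. Sparcl1 stood at 200 and 455 CPM. Olig1 was 1.85-fold (1.75 to 1.95) higher at 643 and 1188 CPM, and it was detected in 64.5% and 93.0% of members, or 51.5% and 82.4% of them at 4000 UMIs. Of 25 astrocyte lineage genes 6 were higher in the library labelled GE and 1 lower, with a median of 0.36. The astrocyte lineage-like cluster held 22.1% and 36.4% of members. Its part in these ratios was not tested.

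**Figure D5:**
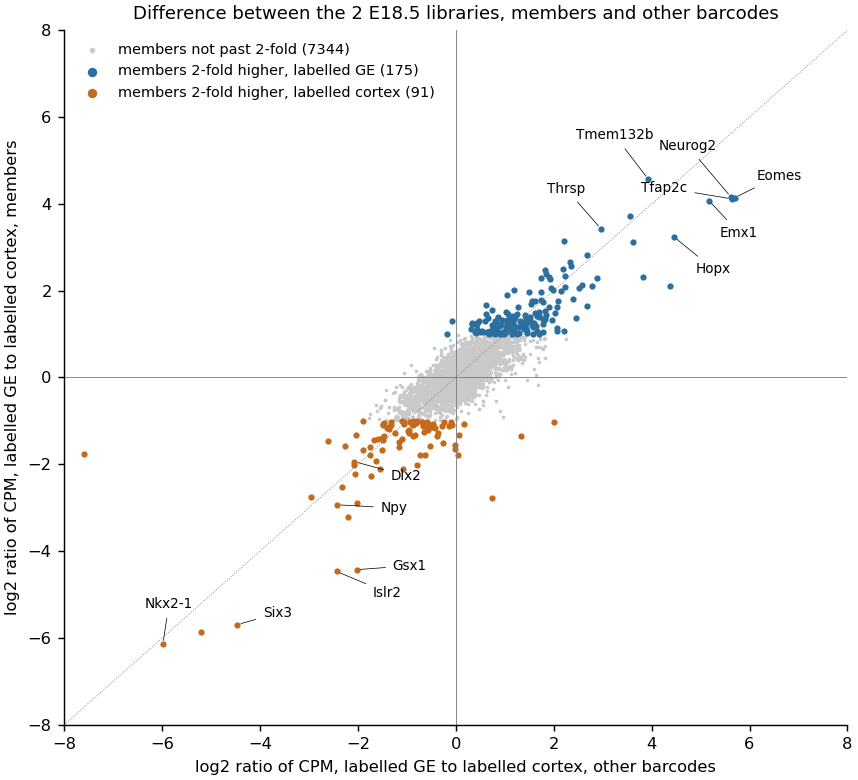
Log2 ratio of CPM in the library labelled GE E18.5 to that in the library labelled cortex E18.5, in other barcodes (x axis) and in members (y axis), for each of 7610 genes measured in members. Emx1, Eomes and Neurog2 lie above 4 in members and above 5 in other barcodes, and Nkx2-1 lies near -6 in both.

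The same rule found fewer barcodes at E15.5. At E15.5 the library labelled cortex had 139 of 1168 barcodes that met it (11.9%), but these barcodes were much deeper, with a median of 28931 UMIs, and at 4000 UMIs 21 of 1168 met it (1.80%). Xist and Y-linked UMIs were found together in 59.7% of them and in 32.9% of the other barcodes of that library. The shares were 6.80% and 11.8% of members in the E18.5 libraries labelled cortex and GE. Doublet-like barcodes made up 2.88% and 0.680% of the same E15.5 members and other barcodes. Whether the joint UMIs came from 2 cells of different sex, from free RNA or with depth was not tested. In the library labelled GE E15.5 2 of 876 barcodes met the rule. Of the 10 genes higher in E18.5 members, 4 were measured in the library labelled cortex E15.5, all 4 were above a ratio of 1 and none reached 2-fold, with a median log2 ratio of 0.75. Of the 80 lower genes 73 were measured, 41 were below a ratio of 1, none reached 2-fold lower and 1 was at least 2-fold higher, with a median of -0.04. At 4000 UMIs Egfr was found in 6.73% of Olig2 barcodes and 4.57% of those without Olig2, with overlapping intervals of 4.21 to 10.1% and 3.26 to 6.22%. These shares again use only genes of the rule and are a description.

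Markers of other cell types had low summed levels in members, though not always lower than in the comparison sets. Of 10 microglia markers 9 had no UMI, and their summed level was 0.219 CPM in the library labelled cortex and 0.475 CPM in the library labelled GE. Endothelial markers summed to 9.87 and 9.03 CPM, fibroblast markers to 5.48 and 2.85 CPM, choroid plexus markers to 0.877 and 0.475 CPM, mural markers to 74.3 and 58.0 CPM and ependymal markers to 77.2 and 61.3 CPM. In other barcodes endothelial markers summed to 7.96 and 49.8 CPM and ependymal markers to 163 and 66.3 CPM. The other lists of this paragraph summed lower in members than in other barcodes of both libraries. In the Pdgfra/Sox10 set ependymal markers summed to 31.4 and 27.4 CPM. Doublet-like barcodes made up 3.30% and 1.07% of members and 2.33% and 0.937% of other barcodes. Xist and Y-linked UMIs were found together in 6.80% and 11.8% of members and in 6.07% and 11.8% of other barcodes of the E18.5 libraries.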

How the data were processed

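The authors deposited raw UMI counts for each gene and barcode. Cell Ranger 1.3.1, Seurat and mm10 are named, without a role, per the submitters' processing notes. Which annotation was used, and how cells were called, was not given in the sources used here. In all, the files hold 27998 genes, and 56 symbols belong to more than 1 identifier and were kept apart.

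Groups follow the labels, with 1 library each. File names and labels disagree on the region of all 4 libraries. Barcodes with under 1000 genes or over 10% mitochondrial UMIs were left out. Members and gene lists were chosen with earlier results of these data known. UMIs were summed over a set of barcodes and divided by a total without 13 mitochondrial, 103 ribosomal protein and 10 haemoglobin genes, giving counts per 1000000 (CPM). CPM has exact Poisson, ratios have exact conditional binomial and shares have exact Clopper-Pearson 95% intervals. A count of 0 was bounded at 3 UMIs. No test was possible with 1 library per group. The calculation was tested on simulated counts.

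Barcodes were clustered without the 4 rule genes on 2000 variable genes, 30 principal components, 20 neighbours and Leiden resolution 1. Of 29 lists, 1 gene was not found. A cluster took the name of the list with the highest mean log2 fold, if it led the next by at least 0.1 and at least 3 markers were detected. A mean of at least 0.5 and at least 1 marker among the top 10 genes were also required, limits set after seeing the data. Doublet-like barcodes were the top 0.8% per 1000 barcodes against 2 simulated doublets per barcode, and were kept. Thinning drew 4000 UMIs per barcode and left out shallower barcodes. Named genes were ranked by the smaller of the libraries' log2 ratios: the top 15 higher and 10 lower against the other barcodes, 6 each way against each neighbouring set, 8 each way between the libraries, up to 4 per list, and a set of lineage genes named in any case. Genes without a name and ribosomal, mitochondrial, haemoglobin and sex-linked genes were left out. Ina, the leading genes of clusters and the genes under other observations were named outside this rule after their values were seen. Alternatives changed the rule, the depth, the scaling (edgeR 4.0.16 for scale factors), the minimum CPM, the fold, the cells and the clustering. Other tools were Python 3.11.15, numpy 2.4.6, scipy 1.17.1, pandas 2.3.3, scanpy 1.11.5, igraph 0.11.9, scikit-learn 1.9.0 and matplotlib 3.10.9.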

Additional observations from a re-analysis of the deposited data

Results flagged for a closer look

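Gsx1 and Spry4 drew attention because their ratios of members to other barcodes had opposite directions in the E18.5 libraries, with intervals that exclude a ratio of 1 in both. Gsx1 had a log2 ratio of -1.64 in the library labelled GE and 0.76 in the library labelled cortex. The former rests on 11 UMIs in members, 45.5% of them from 1 barcode. Spry4 had a log2 ratio of -0.56 in the library labelled GE and 1.06 in the library labelled cortex, at 38 and 61 UMIs in members. With 1 library on each side, neither difference was tested.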

How the results depend on the processing

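No paired analysis was possible because each group holds 1 library and members were chosen by their own counts, and members were compared with other barcodes within each library without a test. The share of members moved with the rule: with at least 2 Egfr UMIs it was 8.67% in the library labelled cortex and 10.7% in the library labelled GE, with at least 2 Olig2 UMIs 11.0% and 12.9%, without the condition on Pdgfra and Sox10 18.6% and 37.1%, and at 4000 UMIs 7.38% and 10.5%. Leaving out doublet-like barcodes or keeping all deposited barcodes did not move it beyond its interval.

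Against other barcodes, counts moved from 10 higher and 80 lower to 42 and 132 at 4000 UMIs, 40 and 152 as a mean over barcodes, 79 and 192 without Mki67 and Top2a barcodes, 343 and 435 with a minimum of 3 UMIs, and 87 and 236 at 1.5-fold. At 50 CPM the lower count was 31. All 10 higher genes were shared as a mean over barcodes, without Mki67 and Top2a barcodes and without doublet-like barcodes. The minimum of 3 UMIs and the 1.5-fold limit only loosen the rule, so they could not lose any of the 10. Of the 10, 9 were shared with totals over all genes and 9 with scale factors from the trimmed mean of M-values. At 50 CPM 7 were shared, at 4000 UMIs 7, with at least 2 Egfr UMIs 8 and with at least 2 Olig2 UMIs 6. Against the Pdgfra/Sox10 set, 37 higher and 127 lower became 23 and 58 at 50 CPM and 156 and 202 at 4000 UMIs, and 250 were higher without Mki67 and Top2a barcodes. Against Olig2 alone, 9 and 16 became 4 and 9 at 50 CPM, 18 higher at 4000 UMIs, and 43 and 122 without Mki67 and Top2a barcodes. Against Egfr alone, 14 and 14 became 6 and 2, 44 and 39, and 53 and 85 under the same alternatives. Without Mki67 and Top2a barcodes 7 of the 9 higher and all 16 lower genes against Olig2 alone were kept, and 10 and 5 of 14 against Egfr alone. Between the libraries, 175 and 91 became 74 and 38, 506 and 352, and 372 and 336. The rule applied after thinning gave 208 and 121 members, and leaving out Mki67 and Top2a barcodes left 137 and 62, so fewer UMIs stand behind those counts.

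The astrocyte lineage-like share of members in the library labelled cortex moved from 22.1% to 17.3% at Leiden resolution 0.6 and 10.9% at 1.5, and in the library labelled GE from 36.4% to 18.7% at 1.5. The oligodendrocyte lineage-like share rose at 0.6 from 0.206% to 9.28% and from 4.28% to 23.5%, where no late intermediate progenitor-like cluster was named. Of 2396 values of 150 named genes, 658 moved and 3 reversed: Gal3st1 in the library labelled cortex was 0.61 at 4000 UMIs, and Nkx2-1 in the library labelled GE was 1.11 at 4000 UMIs and 0.96 without Mki67 and Top2a barcodes. These rest on few UMIs. For the other changes the cause was not tested. With 1 library per group, the spread between embryos or dissections is unknown.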

Other observations

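A few genes chosen after their values were seen differed between the E18.5 libraries in members unlike in the other barcodes. Dlk1 had a log2 ratio of the library labelled GE to the library labelled cortex of -2.78 in members and 0.74 in other barcodes, Gatm had -1.35 and 1.34, and Rbfox3 had -1.02 and 2.01. Crym was lower in the library labelled GE in both, with -1.77 in members and -7.59 in other barcodes. Whether these ratios differ was not tested.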
